A study of Arabidopsis thaliana with 36 samples.

Results

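The transcripts described here are those of the chloroplast and mitochondrial genomes of Arabidopsis thaliana seedlings, chosen as every transcript or locus whose identifier begins with ATCG (chloroplast genome) or ATMG (mitochondrial genome). The expression tables held 76 of them among 12373 transcripts, 49 from the chloroplast genome and 27 from the mitochondrial genome. The splicing tables added 2 mitochondrial loci, which makes 78 loci in all. The tables list called transcripts only, so an organelle transcript that was not called has no value here, and each median below is a median of called transcripts.

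Seedlings aged 4 days and grown in darkness were given red light (7 µmol per square metre per second) or more darkness for 3 h. Expression was compared in 4 groups of 3 libraries: swap1-1 in red light, swap1-1 in darkness, Col-0 wild type (WT) in red light and WT in darkness. The mutant swap1-1 is in the Col-0 background and is written swap1 here, and SWAP1 is a splicing factor of the nucleus. Splicing was compared between these groups and also in swap1-1sfps-2, swap1-1rrc1-3, sfps-2rrc1-3 and the triple mutant swap1-1sfps-2rrc1-3. Seeds of all groups had been chilled and had received white light to start germination. RNA came from whole seedlings and had been depleted of ribosomal RNA, so fewer organelles or cells and less RNA in each cannot be told apart. Of the SWAP1 gene itself (AT4G31200), only transcript AT4G31200.3 was listed between genotypes; it was higher in swap1, with a log2 fold change of 0.92 (SE 0.28) in the authors' deposited table for swap1 over WT in red light.

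Chloroplasts and mitochondria keep small genomes of their own. In the chloroplast, a bacterial-type RNA polymerase encoded by the plastid works with sigma factors imported from the nucleus, beside phage-type polymerases that the nucleus encodes; mitochondria rely on phage-type polymerases. Dark-grown seedlings hold etioplasts, which turn into chloroplasts in light, and light is known to raise plastid transcription through the nuclear genes for sigma factors. Organelle RNA is further shaped by nucleus-encoded proteins for splicing, editing and processing. The reference annotation used here (TAIR10.1, RefSeq) carries 85 protein-coding, 37 tRNA and 7 rRNA genes on the chloroplast genome. It does not pair the ATCG and ATMG identifiers with gene names, so most transcripts are called by identifier, and a product is named only where a note in the reference gives it.

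A large part of the mitochondrial genome also lies in the nucleus, in a stretch of chromosome 2, and this bears on many of the mitochondrial values below. Of all windows of 150 bases (the read length) on the mitochondrial genome, 65.1% also occurred letter for letter in a nuclear chromosome, against 0.17% of windows on the chloroplast genome. The sharing is uneven: of the 33 mitochondrial protein-coding genes of the reference, 17 had at least 90% of their windows in the nucleus and 6 had none. Of the mitochondrial transcripts, 9 had a nuclear copy named in the reference, with an identity of 99.0% to 100%. How the counting treated reads that match both places is not given in the sources used here. The stretches printed next show how alike such pairs are. They are 90 bases each, from TAIR10.1 (RefSeq), 5′ to 3′, with a base that differs between the copies in capitals.
ATMG00970 (unknown protein), mitochondrion, chrMT:290809-290898, plus strand: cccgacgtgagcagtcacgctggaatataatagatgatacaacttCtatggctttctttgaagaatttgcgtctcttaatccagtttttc
AT2G07676, its nuclear copy, chr2:3272773-3272862, plus strand: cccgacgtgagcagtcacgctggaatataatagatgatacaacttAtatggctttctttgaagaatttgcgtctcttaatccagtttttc
ATMG00730 (cytochrome c oxidase subunit 3), mitochondrion, chrMT:330230-330319, minus strand, and AT2G07687, its nuclear copy, chr2:3312108-3312197, minus strand: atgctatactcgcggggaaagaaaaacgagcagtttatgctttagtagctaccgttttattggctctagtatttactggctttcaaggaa
The first pair differs at 1 base in this stretch and the second pair is identical, so a read of this part of cytochrome c oxidase subunit 3 could come from either place.

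In swap1, red light went with higher chloroplast transcripts: 34 of the 35 called were higher in red light than in darkness and 1 was lower, with a median log2 fold change of 0.82 in the authors' deposited table. In WT the calls were mostly the other way, with 9 higher and 17 lower of 26, at a median of -0.63 in the authors' deposited table. Over all transcripts of each light comparison, at most 26.6% were called in swap1 (at most 15.3% higher and 11.3% lower) and at most 22.2% in WT (at most 13.4% higher and 8.8% lower). Against the 129 chloroplast genes of the reference, the called chloroplast transcripts were 27.1% in swap1 and 20.2% in WT, near those backgrounds. The comparison is rough, since the backgrounds are upper limits over tested transcripts, while the 129 genes include any not tested. The split by direction differed from that of all called transcripts, of which 57.5% were higher in swap1 and 60.4% in WT.

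Between genotypes, the chloroplast calls went one way in darkness and the other way in red light. In darkness, 1 was higher and 20 were lower in swap1 than in WT, with a median of -0.87 in the authors' deposited table. In red light, 18 were higher and 4 lower in swap1, with a median of 0.93 in the authors' deposited table. At most 13.7% of all transcripts were called between the genotypes in darkness (at most 6.18% higher and 7.48% lower) and at most 17.7% in red light (at most 7.87% higher and 9.81% lower). The chloroplast calls were 16.3% and 17.1% of the reference's chloroplast genes in darkness and in red light, again near the background and with the same limit. The 4 comparisons are made from the same 12 libraries, and each group enters 2 of them, so the light and genotype tables are not separate evidence.

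**Figure D1:**
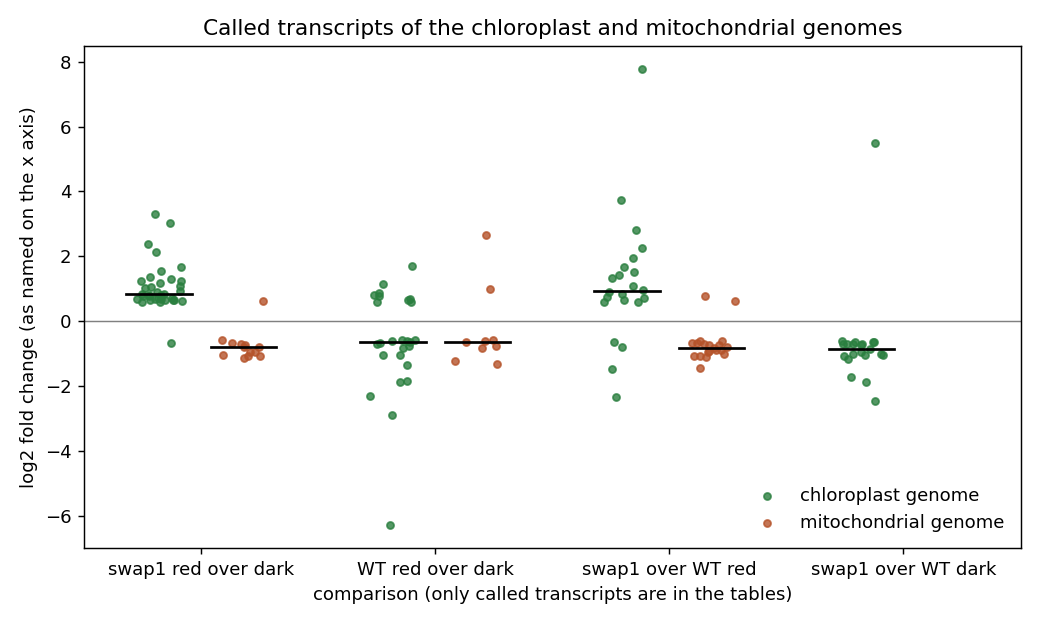
Log2 fold change of every called transcript of the chloroplast genome (green) and mitochondrial genome (brown) in each comparison of the authors' deposited tables; each point is 1 transcript and the black line is the median. Chloroplast points lie mostly above 0 for swap1 in red light over dark (34 of 35) and mostly below 0 for swap1 over WT in darkness (20 of 21), and no mitochondrial transcript was listed for swap1 over WT in darkness.

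The same 10 chloroplast transcripts were called in all 4 tables, and each was lower in red light in WT, higher in red light in swap1, lower in swap1 in darkness and higher in swap1 in red light. ATCG00510 had the widest range. Its group mean, solved from base mean and fold change in the authors' deposited tables, was 240620 and 266530 normalised counts in swap1 in red light, and 25936 and 26977 in swap1 in darkness, 1 value from each table that holds the group. In WT the group mean of ATCG00510, solved from the authors' deposited tables, was 17472 and 18177 normalised counts in red light, and 129190 and 143420 in darkness. Swap1 in red light and WT in darkness were thus the high groups, and swap1 in darkness and WT in red light the low ones. The authors' deposited table gave ATCG00510 a log2 fold change of 3.30 (SE 0.54) for red light over dark in swap1. For WT the same ratio of ATCG00510 was -2.89 (SE 0.58) in the authors' deposited table. Swap1 over WT was 3.73 (SE 0.51) in red light and -2.47 (SE 0.61) in darkness for ATCG00510 in the authors' deposited tables.

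ATCG00600 moved less but with a much smaller error. Solved from the authors' deposited tables, its group mean was 51738 and 57320 normalised counts in swap1 in red light and 22472 and 23382 in swap1 in darkness. In WT the authors' deposited tables gave 19778 and 20573 normalised counts in red light and 41013 and 45501 in darkness for ATCG00600. The log2 fold change of ATCG00600 for red light over dark was 1.29 (SE 0.10) in swap1 and -1.05 (SE 0.11) in WT in the authors' deposited tables. Among the 10, ATCG00590 and ATCG00220 followed ATCG00510 in the size of the log2 fold change for light in swap1. Red light over dark was 2.39 (SE 0.36) in swap1 and -2.32 (SE 0.33) in WT for ATCG00590 in the authors' deposited tables. It was 2.13 (SE 0.27) in swap1 and -1.83 (SE 0.30) in WT for ATCG00220 in the authors' deposited tables.

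ATCG00530, a CemA-like protein of the chloroplast envelope by the reference's note on its nuclear relative, was among the 10. Its group mean, solved from the authors' deposited tables, was 279140 and 309250 normalised counts in swap1 in red light and 146360 and 152270 in swap1 in darkness. In WT the authors' deposited tables gave ATCG00530 99794 and 103810 normalised counts in red light and 206580 and 229110 in darkness. Swap1 over WT was 1.43 (SE 0.23) in red light and -0.65 (SE 0.22) in darkness for ATCG00530 in the authors' deposited tables. The other members of the 10 were ATCG00040, ATCG00690, ATCG01020, ATCG01070 and ATCG01090. Across all 10, the log2 fold change for red light over dark ran between 0.70 and 3.30 in swap1, and between -2.89 and -0.59 in WT, in the authors' deposited tables. Swap1 over WT ran between 0.59 and 3.73 in red light, and between -2.47 and -0.65 in darkness, in the authors' deposited tables. The 10 did not move by the same factor, since ATCG01090 stayed between -0.71 and 0.72 in all 4 of the authors' deposited tables.

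**Figure D2:**
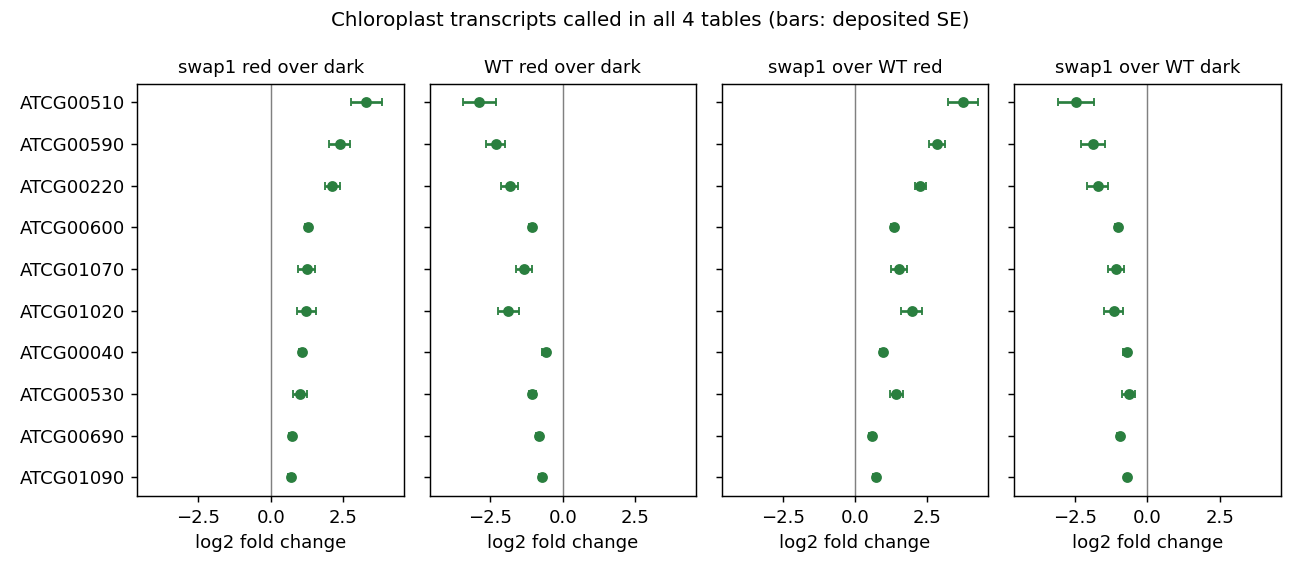
Log2 fold change (points) and deposited SE (bars) of the 10 chloroplast transcripts called in all 4 tables, 1 panel per comparison. All 10 lie below 0 for WT in red light over dark and for swap1 over WT in darkness, and above 0 in the other panels; ATCG00510 spans -2.89 to 3.73.

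**Figure D3:**
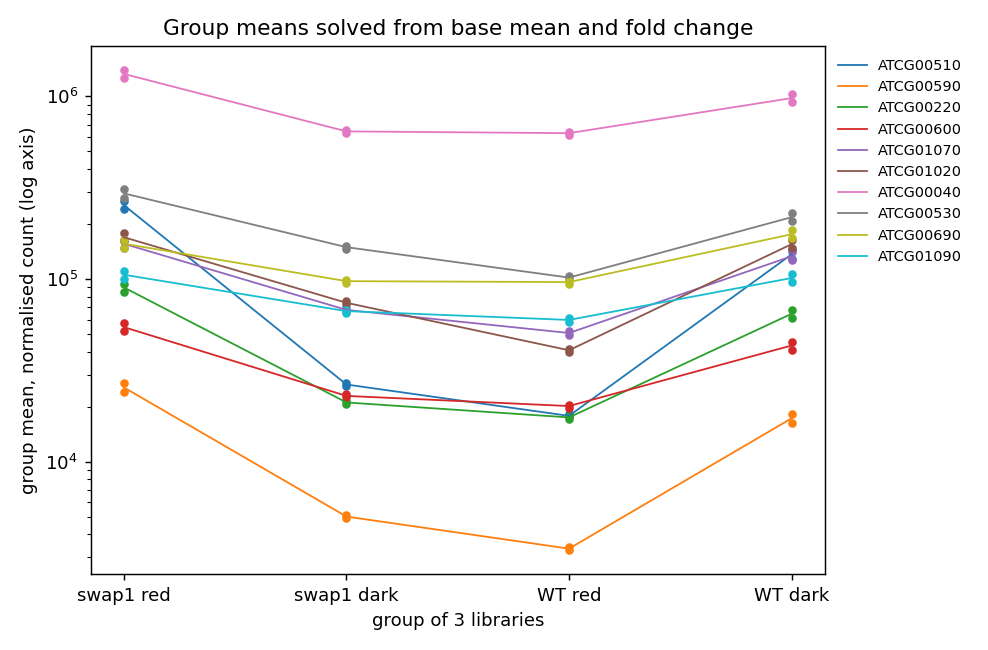
Group means of the same 10 transcripts in normalised counts (log axis), solved from base mean and fold change in the authors' deposited tables, for swap1 in red light, swap1 in darkness, WT in red light and WT in darkness; the 2 points per group come from the 2 tables that hold it and lie within 1.11-fold of each other, and lines join the mean of each pair. Every line is low in the middle groups and high at both ends; levels of different transcripts are not to be compared, as counts grow with transcript length.

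The difference in light effect between genotypes was tested for transcripts called in both light tables, by dividing the difference of the fold changes by its SE and adjusting over all 4679 such transcripts by Benjamini-Hochberg. Of 20 chloroplast transcripts, 16 differed at an adjusted p below 0.05, all with a higher value in swap1. Of 4656 nuclear transcripts, 1216 (26.1%) differed, 661 with a higher and 555 with a lower value in swap1. For 13 of the 16, the light effects in swap1 and WT had opposite signs, as had those of 90 nuclear transcripts (1.93%). Because every listed fold change is beyond the call limit, transcripts with opposite signs differ by at least the sum of both limits. Each had also passed the adjusted p limit in both genotypes, so a low adjusted p for the difference was nearly fixed in advance. All 90 nuclear transcripts with opposite signs passed as well. For such transcripts the values below give the size of the difference and are no separate support. The largest difference was that of ATCG00510, 6.19 (95% interval 4.63 to 7.75), with an adjusted p of 4.06e-13. The smallest adjusted p was that of ATCG00600, 1.72e-53, for a difference of 2.35 (95% interval 2.06 to 2.63).

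Beside the 10, the chloroplast transcripts with opposite signs were ATCG01000, ATCG01080 and ATCG01130. The difference in light effect was 1.46 (95% interval 1.08 to 1.84) for ATCG01000 and 1.23 (95% interval 0.96 to 1.49) for ATCG01080. It was 1.46 (95% interval 1.17 to 1.74) for ATCG01130. These were also higher in swap1 than in WT in red light, by 0.89, 0.65 and 1.09 on the log2 scale in the authors' deposited table. None of the 3 was listed between genotypes in darkness.

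Not every chloroplast transcript followed that pattern. ATCG00020 rose with red light in both genotypes. Its solved group mean was 6709000 normalised counts in swap1 in red light, against 2986000 in swap1 in darkness, from the authors' deposited table. In WT the mean of ATCG00020 was 6407000 normalised counts in red light, against 4072000 in darkness, from the authors' deposited table. The log2 fold change of ATCG00020 was 1.17 (SE 0.08) in swap1 and 0.65 (SE 0.09) in WT in the authors' deposited tables, a difference of 0.51 (95% interval 0.27 to 0.76, adjusted p = 0.000371, or 0.0592 with the SE enlarged 1.5 times). ATCG00200 rose by 1.36 in swap1 and by 0.85 in WT on the log2 scale in the authors' deposited tables, also a difference of 0.51 (95% interval 0.24 to 0.78, adjusted p = 0.00176, or 0.108 with the SE enlarged 1.5 times).

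A further 4 chloroplast transcripts rose with red light in both genotypes without a difference past the threshold. The difference, swap1 minus WT, was -0.07 (95% interval -0.35 to 0.21) for ATCG00240 and 0.03 (95% interval -0.56 to 0.62) for ATCG00290. It was -0.03 (95% interval -0.39 to 0.32) for ATCG00320 and 0.29 (95% interval -0.02 to 0.60) for ATCG00410. These intervals lie below the differences of 1.23 to 6.19 in the 13 transcripts above. The sorting by sign largely sets that gap, since opposite calls must differ by at least the sum of both limits and calls of the same sign need not. Another 10 chloroplast transcripts were called higher in red light in swap1 and in no other table.

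The chloroplast transcripts with the most counts among those called were lower in swap1 in darkness. ATCG00490 had a solved group mean of 6982000 normalised counts in swap1 and 10880000 in WT in darkness, from the authors' deposited table. Its log2 fold change was -0.64 (SE 0.09) in the authors' deposited table. ATCG00020 was -0.65 (SE 0.09) and ATCG00680 was -0.62 (SE 0.08) in the same comparison of the authors' deposited table. The summed base mean of the 21 chloroplast transcripts made up 67.2% of that of all transcripts called there, and 30.8% in the comparison of genotypes in red light. In red light over dark the chloroplast share of the summed base mean of called transcripts was 21.3% in swap1 and 23.2% in WT. These shares depend on which abundant transcripts were called and do not measure the chloroplast part of the RNA. ATCG00490, ATCG00020 and ATCG00680 were not listed between genotypes in red light.

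The only chloroplast transcript called lower in red light in swap1 was ATCG00280, which was also lower in swap1 than in WT in red light. Its solved group mean was 477000 normalised counts in swap1 in red light and 757400 in swap1 in darkness, from the authors' deposited table. The log2 fold change of ATCG00280 for swap1 over WT in red light was -1.47 (SE 0.11) in the authors' deposited table. ATCG00905, ATCG00630 and ATCG00010 were the other transcripts lower in swap1 in red light, by -2.34 (SE 1.00), -0.79 (SE 0.20) and -0.65 (SE 0.12) on the log2 scale in the authors' deposited table. ATCG00905 had few counts, with a solved group mean of 40.3 normalised counts in swap1 and 204 in WT, and its DESeq2 adjusted p was 0.0481. ATCG00400 was lower in both comparisons against WT in darkness, with -1.05 (SE 0.09) for swap1 in darkness and -0.64 (SE 0.10) for WT in red light, both in the authors' deposited tables.

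The largest fold changes came from chloroplast transcripts with few counts and wide errors. ATCG01280 had a solved group mean of 891 normalised counts in swap1 and 4.04 in WT in red light, a log2 fold change of 7.79 (SE 2.11) in the authors' deposited table. For WT it had 3.88 normalised counts in red light and 306.6 in darkness, a log2 fold change of -6.30 (SE 1.70) in the authors' deposited table. ATCG01200 had 484.1 normalised counts in swap1 and 10.7 in WT in darkness, a log2 fold change of 5.50 (SE 1.04) in the authors' deposited table. These SE are far wider than those of ATCG00600. ATCG00920 rose with red light by 3.02 (SE 0.60) in swap1 and by 1.14 (SE 0.31) in WT in the authors' deposited tables, and the difference was 1.88 (95% interval 0.57 to 3.19, adjusted p = 0.0232, or 0.286 with the SE enlarged 1.5 times). Part of the chloroplast genome is present more than once, since 33.8% of its windows of 150 bases recur within it, and which of these transcripts lie there was not looked up. Nor was it looked up which of them are ribosomal RNA, of which the libraries had been depleted, so low counts may be what depletion left.

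Nuclear loci for small nucleolar RNAs (snoRNAs), short RNAs that guide the modification of ribosomal RNA in the nucleolus, were called mostly in the same directions as the chloroplast transcripts. In red light over dark, 18 snoRNA loci were higher and 2 lower in swap1, and 4 were higher and 20 lower in WT, in the authors' deposited tables. In swap1 over WT, 26 were higher and 2 lower in red light, and 1 was higher and 12 lower in darkness, in the authors' deposited tables. The reference holds 287 snoRNA loci, so most were not called and have no value here. At most 26.6% of all transcripts were called for light in swap1 and 22.2% in WT. Between genotypes at most 17.7% were called in red light and 13.7% in darkness. Of 12 snoRNA loci called in both light tables, 9 were higher in red light in swap1 and lower in WT, and these 9 are 75 to 92 bases long. The other 3 moved the same way in both genotypes. AT1G19376 (87 bases) was lower in red light, at -0.91 in swap1 and -0.89 in WT on the log2 scale in the authors' deposited tables. AT5G53902 (702 bases) and AT5G54075 (361 bases) were higher in red light in both genotypes, by 1.30 and 0.97 on the log2 scale in swap1 and by 1.39 and 1.34 in WT in the authors' deposited tables. Protein-coding loci did not split this way, with medians of 0.71 in swap1 and 0.75 in WT for red light over dark in the authors' deposited tables. No value per library is held here, so whether the libraries differ in the recovery of short or non-polyadenylated RNA cannot be seen, and its part in the chloroplast result was not tested. The lengths of the chloroplast transcripts were not looked up, so whether those that moved most are as short as the snoRNA loci cannot be told.

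**Figure D4:**
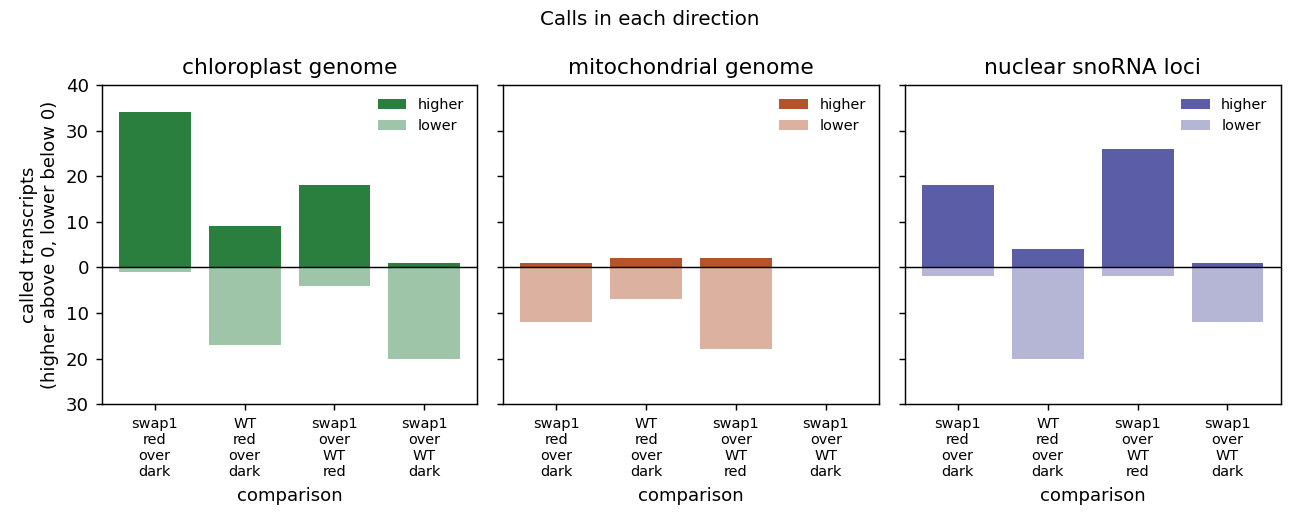
Number of called transcripts, higher (above 0) and lower (below 0), in each comparison for the chloroplast genome, the mitochondrial genome and nuclear snoRNA loci. The chloroplast and snoRNA panels have mostly higher calls for swap1 in red light over dark (34 of 35 and 18 of 20) and mostly lower ones for WT (17 of 26 and 20 of 24), while the mitochondrial calls are mostly lower wherever there are any.

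Mitochondrial transcripts were mostly lower in every comparison that listed any. In red light over dark, 1 was higher and 12 were lower in swap1 (median -0.81), and 2 were higher and 7 lower in WT (median -0.63) in the authors' deposited tables. In swap1 over WT, 2 were higher and 18 lower in red light (median -0.82) in the authors' deposited table. Of all called transcripts, 57.5% were higher for light in swap1, 60.4% for light in WT and 44.5% for genotypes in red light. The calls over all transcripts were at most 26.6% for light in swap1, 22.2% for light in WT and 17.7% for genotypes in red light. The ATMG identifiers are not paired with the reference's mitochondrial genes, so no share of them is given, and whether the number called is above that background cannot be told. The transcripts whose near-identical nuclear copy is named in the reference were then left out. Mitochondrial calls for red light over dark became 1 higher and 7 lower in swap1, and 1 higher and 3 lower in WT. For swap1 over WT in red light they became 2 higher and 14 lower. The other mitochondrial transcripts were not checked for copies, so those that remain may also share their sequence with the nucleus. No mitochondrial transcript was listed between genotypes in darkness, where the table holds only transcripts past the authors' thresholds in DESeq2, so no count at a looser p can be given. Direction among the called transcripts thus differed between the organelles in swap1 in red light, where 34 of 35 chloroplast and 1 of 13 mitochondrial transcripts were higher than in darkness.

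The same 9 mitochondrial transcripts were lower in swap1 in red light against both swap1 in darkness and WT in red light, comparisons that share the libraries of swap1 in red light. They were ATMG00080, ATMG00090, ATMG00100, ATMG00650, ATMG00810, ATMG00830, ATMG00960, ATMG00970 and ATMG01130. ATMG00960, a cytochrome c assembly protein, had a solved group mean of 1073 normalised counts in swap1 and 2319 in WT in red light, from the authors' deposited table. Against darkness, swap1 had 1187 normalised counts in red light and 2634 in darkness for ATMG00960, from the authors' deposited table. Its log2 fold change was -1.11 (SE 0.15) for swap1 over WT in red light and -1.15 (SE 0.14) for red light over dark in swap1 in the authors' deposited tables. ATMG00650 was -1.07 in both comparisons, with SE of 0.11 and 0.25, in the authors' deposited tables.

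The mitochondrial transcript furthest below WT in red light was ATMG00780, at 33.8 normalised counts in swap1 and 92.9 in WT and a log2 fold change of -1.46 (SE 0.46) in the authors' deposited table. ATMG00980, ribosomal protein S12, was -0.74 (SE 0.17) in that comparison of the authors' deposited table. The mitochondrial transcripts higher in swap1 in red light were ATMG01370 at 0.78 (SE 0.11) and ATMG00490 at 0.63 (SE 0.16) in the authors' deposited table. Both were lower in red light than in darkness in WT, by -0.63 and -0.78 on the log2 scale in the authors' deposited table. ATMG01380 did the reverse, at -0.74 (SE 0.21) for swap1 over WT in red light and 0.99 (SE 0.21) for red light over dark in WT in the authors' deposited tables. These comparisons share the libraries of WT in red light.

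ATMG00290, ATMG00400 and ATMG00730 were lower in red light in both genotypes. ATMG00730, cytochrome c oxidase subunit 3 of the respiratory chain, had 1354 normalised counts in red light and 2874 in darkness in swap1, from the authors' deposited table. In WT it had 1621 normalised counts in red light and 2501 in darkness, from the authors' deposited table. Its log2 fold change was -1.09 (SE 0.10) in swap1 and -0.63 (SE 0.13) in WT in the authors' deposited tables, and the difference was -0.46 (95% interval -0.78 to -0.14, adjusted p = 0.0245, or 0.291 with the SE enlarged 1.5 times). For ATMG00290, ribosomal protein S4, light over dark was -1.03 (SE 0.27) in swap1 and -1.22 (SE 0.24) in WT in the authors' deposited tables, with a difference of 0.19 (95% interval -0.51 to 0.89). For ATMG00400, of unknown product, it was -0.95 (SE 0.27) in swap1 and -1.31 (SE 0.23) in WT in the authors' deposited tables, with a difference of 0.36 (95% interval -0.34 to 1.07). ATMG00480, ATPase subunit 8, was lower in red light in WT, at -0.60 (SE 0.11) in the authors' deposited table, and ATMG00370, annotated as Ycf1 protein, was higher there, at 2.64 (SE 1.08) on a base mean of 5.67.

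Nuclear loci with identifiers beginning with AT2G07 (335 in the reference) cover the stretch of chromosome 2 that holds the mitochondrial insertion, together with loci outside it. Few of the 335 were called: 19 for swap1 over WT in red light and 3 in darkness. For red light over dark, 16 were called in swap1 and 6 in WT. Over all transcripts, at most 17.7%, 13.7%, 26.6% and 22.2% were called in these comparisons, in that order. Of the called loci with at least 50% of their 150-base windows in the mitochondrial genome, 1 was higher and 9 were lower in swap1 than in WT in red light, with a median of -0.71 in the authors' deposited table. How many uncalled loci share as much was not counted. Of such sharing loci in red light over dark, 3 were higher and 7 lower in swap1, and 1 was higher and 4 lower in WT, in the authors' deposited tables. In darkness no locus with that much sharing was called between genotypes, as for the mitochondrial transcripts. The AT2G07 loci that share less than that, or nothing, leaving out loci shorter than a window, were also mostly lower, with 1 higher and 5 lower for swap1 over WT in red light and 0 higher and 4 lower for red light over dark in swap1, in the authors' deposited tables. AT2G07768, the nuclear copy of ATMG00960, was -1.02 (SE 0.29) for swap1 over WT in red light and -1.86 (SE 0.23) for red light over dark in swap1 in the authors' deposited tables. AT2G07676, the copy of ATMG00970 printed above, was -0.62 (SE 0.12) for swap1 over WT in red light, where ATMG00970 was -0.96 (SE 0.14), in the authors' deposited table. Whether these reads came from the organelle or the nucleus cannot be told apart.

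**Figure D5:**
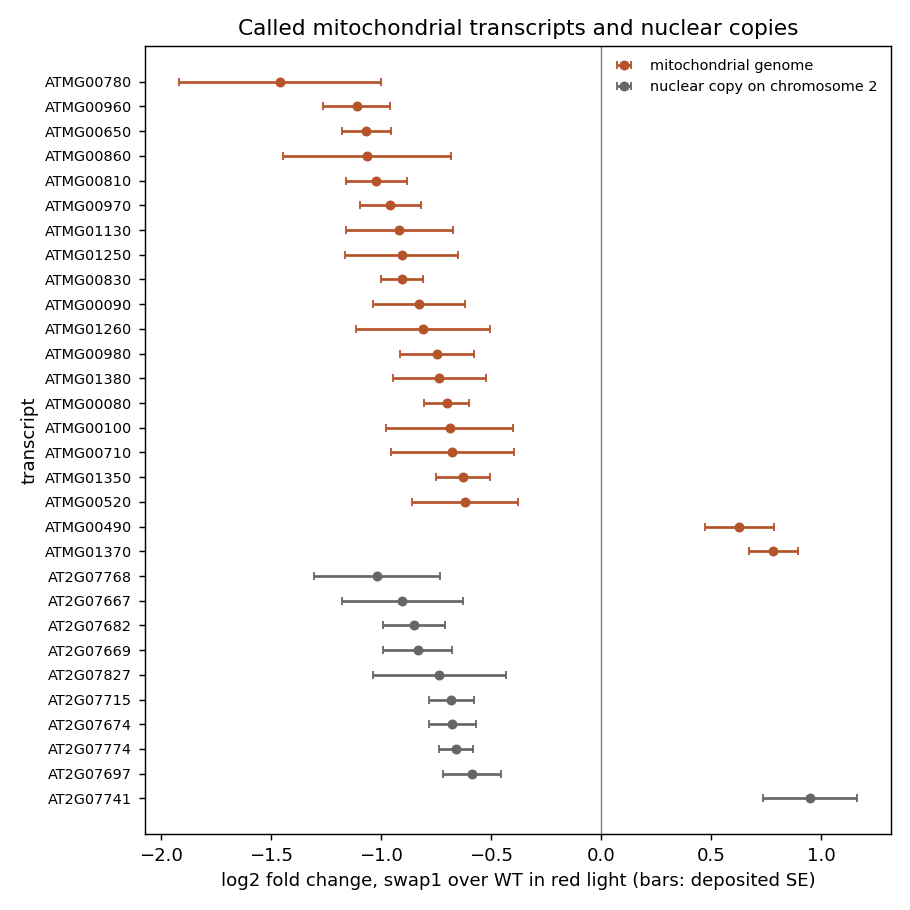
Log2 fold change of swap1 over WT in red light with the deposited SE (bars) for the 20 called mitochondrial transcripts (brown) and the 10 called chromosome 2 loci that share at least 50% of their windows with the mitochondrial genome (grey). In the brown set 18 lie below 0 and in the grey set 9.

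Nuclear genes that serve plastid transcription were also examined. Of 6 sigma factors, which direct the plastid-encoded polymerase to promoters, 4 were higher in red light in swap1 and 5 in WT, and none was lower, in the authors' deposited tables. At most 15.3% of all transcripts were higher in red light in swap1 and at most 13.4% in WT. SIG5, a light-responsive sigma factor, rose by 4.91 (SE 0.08) in swap1 and by 4.17 (SE 0.11) in WT on the log2 scale in the authors' deposited tables. In swap1 over WT, SIG1 was -1.20 (SE 0.12) and SIG2 was -0.72 (SE 0.10) in red light, and SIG5 was -0.60 (SE 0.11) in darkness, in the authors' deposited tables. Over all transcripts, at most 9.81% were lower in swap1 in red light and 7.48% in darkness. The other sigma factors were not listed for swap1 over WT in red light. A link between sigma factors and the chloroplast transcripts was not tested. None of the 3 phage-type organelle polymerases was listed in any of the authors' deposited tables, and a list of 3 is too short to set against the share of all transcripts called.

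Of 12 nuclear genes for proteins associated with the plastid-encoded polymerase, 2 had a transcript called higher and 1 a transcript called lower in red light in swap1. In WT 2 were higher. Between genotypes, 2 were lower in swap1 in darkness and 1 in red light. At most 26.6% of all transcripts were called for light in swap1 and 22.2% in WT. Between genotypes at most 13.7% were called in darkness and 17.7% in red light. PTAC7 rose with red light by 1.15 in swap1 and by 1.20 in WT, TRXZ by 1.01 in swap1, and PTAC2 by 0.70 in WT on the log2 scale in the authors' deposited tables. In darkness, the plastid superoxide dismutase FSD2 was -0.79 (SE 0.11) and the thioredoxin TRXZ -0.70 (SE 0.10), as swap1 over WT, according to the authors' deposited table. The PTAC10 transcript AT3G48500.2 was -0.90 for red light over dark in swap1 and -0.96 for swap1 over WT in red light, both in the authors' deposited tables.

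In the splicing tables, organelle loci gave 3 of 56407 rows, and none of them was from the chloroplast genome. An intron of ATMG00510 (963 bases, 132214 to 133176 on the authors' mitochondrial sequence) had a log2 fold change of -0.70 for swap1 over WT in red light, with an FDR of 0.00792, in the authors' deposited table. In that comparison 16% of annotated genes had a called region. A junction of ATMG00285 that spans 983 bases (80135 to 81117) was called as new in swap1-1sfps-2 against the triple mutant in darkness, with an FDR of 4.35e-15 and a change in junction use of 0.778 without a sign, in the authors' deposited table. The same junction was called in sfps-2rrc1-3 against the triple mutant in red light, with an FDR of 1.38e-12 and a change of 0.709, in the authors' deposited table. In these comparisons 0.418% and 3.24% of annotated genes had a called region. No expression call was listed for ATMG00285 or ATMG00510.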

How the data were processed

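RNA of 36 libraries (12 groups of 3) was sequenced by the authors with reads of 150 bp, and the libraries were grouped by their labels. Per the series design, the authors aligned reads with STAR and then used HTSeq, DESeq2 and ASpli; the submitters' processing notes add FastQC and the build TAIR10. Tool versions, strand handling and the treatment of reads with several matches were not stated. The authors deposited, for called transcripts only, the DESeq2 base mean (a normalised signal), the log2 fold change with its SE, a Wald score, and a p-value with its adjusted p-value (at most 0.05, with a log2 fold change of at least 0.58 in size). Per the file headers, the splicing tables hold a bin log2 fold change, an FDR (an adjusted p-value) and a junction change, a fraction without sign. No value per library was given, so depth is unknown, no test over libraries was possible, and errors are the deposited SE. The labels do not say that libraries came from separate cultures, so the p-values measure only the spread between these libraries, which may be technical.

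Light tables were read as red over dark (LHCB2.2 and LHCA1 positive, PORA negative). Genotype tables were turned to swap1 over WT, since the 4 comparisons then closed as a loop over 535 transcripts to a median of 0.00302 log2 units, against 0.628 for the next best choice of signs. Group means were solved from base mean and fold change, taking groups as equal in size. Differences between comparisons that share no library were tested by a two-sided normal test on the deposited SE and Benjamini-Hochberg adjustment. The percentage of transcripts called is an upper limit, as the number tested (at least 28050) was inferred from ranks and adjusted p-values. Copies were sought with blastn 2.17.0+ and exact windows in TAIR10.1; Python 3.11.15, pandas 2.3.3 and SciPy 1.17.1 were used. Named transcripts were, per table and organelle, up to 10 of the largest rises and falls, those called in 3 or 4 tables, those whose effects differed and those with a splicing call, of which the most informative are given with values. Members and lists were chosen with earlier results of these data known, and the snoRNA loci were compared after the chloroplast pattern was seen. Alternatives were stricter limits, transcripts with a nuclear copy named in the reference or with low base mean left out, a larger SE and centring.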

Additional observations from a re-analysis of the deposited data

Results flagged for a closer look

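The light effect, red over dark, differed between swap1 and WT (swap1 minus WT, log2) for 17 organelle transcripts called in both light tables. For the 13 with opposite signs in swap1 and WT, a low adjusted p was nearly fixed in advance. The difference was 6.19 for ATCG00510, 4.71 for ATCG00590, 3.97 for ATCG00220, 3.12 for ATCG01020, 2.59 for ATCG01070, 2.35 for ATCG00600 and 2.07 for ATCG00530. It was 1.88 for ATCG00920, 1.68 for ATCG00040, 1.54 for ATCG00690, 1.46 for both ATCG01000 and ATCG01130, 1.42 for ATCG01090 and 1.23 for ATCG01080. It was 0.51 for both ATCG00020 and ATCG00200, and -0.46 for the mitochondrial ATMG00730, whose sequence lies also in the nucleus.

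The effect of swap1 over WT differed between red light and darkness (red minus dark, log2) for the 10 chloroplast transcripts called in both genotype tables. All 10 had been called with opposite signs in red light and darkness, so a low adjusted p for the difference was nearly fixed in advance. The difference was 6.19 for ATCG00510, 4.71 for ATCG00590, 3.97 for ATCG00220, 3.12 for ATCG01020, 2.59 for ATCG01070, 2.35 for ATCG00600, 2.07 for ATCG00530, 1.68 for ATCG00040, 1.55 for ATCG00690 and 1.42 for ATCG01090. Both differences are the same contrast of the same 12 libraries, computed along rows or columns, so the second adds nothing independent to the first. Of the nuclear transcripts called in both genotype tables, 263 of 2160 (12.2%) differed, and all 64 with opposite signs were among them.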

How the results depend on the processing

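A limit of 1 on the absolute log2 fold change lowered the organelle calls to 18 of 48 for red light over dark in swap1, 13 of 35 in WT, 10 of 21 for swap1 over WT in darkness and 17 of 42 in red light. At that limit, chloroplast calls were 14 higher and 0 lower in swap1 for red light over dark, and 2 higher and 8 lower in WT. Swap1 over WT had 10 higher and 2 lower in red light, and 1 higher and 9 lower in darkness. Mitochondrial calls fell to 4 of 13 in swap1 and 3 of 9 in WT for red light over dark, and to 5 of 20 for swap1 over WT in red light, all 5 lower. Counting bins alone left 1 of the 3 organelle splicing calls. An adjusted p of at most 0.01, leaving out transcripts with a nuclear copy named in the reference, and leaving out the lowest 25% of base means each kept the counts of both organelles together within 1.5 times. Without transcripts whose copy is named, mitochondrial calls alone fell to 8 of 13 in swap1 and 4 of 9 in WT for red light over dark. For swap1 over WT in red light they fell to 16 of 20. The calls that remain were not checked for other copies. Without the lowest base means, mitochondrial calls fell to 6 of 9 in WT. The number of differing light effects, 17, was 13 with the SE enlarged 1.5 times, 14 with a difference of at least 1, 15 at an adjusted p below 0.01 and 17 after centring on the median of all transcripts (0.02). ATMG00730 and ATCG00920 lost their difference with the larger SE, at adjusted p of 0.291 and 0.286, as did ATCG00020 (0.0592) and ATCG00200 (0.108). The 10 differing swap1 effects stayed 10 under each; the limit of 1 could not remove any, as opposite calls differ by more than that, and the same holds for the 13 light effects with opposite signs.

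No paired analysis was possible because the tables hold no value per library. For the same reason leaving out each replicate was not run, so a single library that stands apart would not be seen. Leaving out tRNA and rRNA transcripts was not run, since the identifiers are not paired with gene types here. The depth of the libraries is unknown, and organelle transcripts that were not called have no value.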
